A study of Homo sapiens with 6 samples.

Results

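Accessible chromatin was described at the loci of 9 genes of the JUN and FOS family, JUN, JUNB, JUND, FOS, FOSB, FOSL1, FOSL2, BATF and BATF3, out of 20037 protein-coding genes. The loci comprised every site of the deposited count table that overlapped a gene's body extended by 50 kb on each side, which gave 202 of 181135 sites, and all 202 passed the filter on low counts. The members were chosen by gene name and position and not by their counts, though with earlier results of these data known. The assay was ATAC-seq, in which a transposase cuts and tags open chromatin, so that the reads over a site measure how accessible it was. It was run on K562, an established human line from a chronic myelogenous leukaemia, with wild-type genotype per the labels. The treatment was 25 nM PMA for 0, 6 or 72 h, so the 0 h libraries are the reference without exposure to it. PMA is a phorbol ester and protein kinase C activator used to move this line towards a megakaryocyte-like state. Medium was changed after 24 and 48 h, which only the 72 h exposure reached. Each exposure time had 2 libraries (replicates 1 and 2). The labels do not say whether these came from separate cultures, so the p-values measure only the spread between these samples, which may be technical. Accessibility is not transcription, and no RNA was measured here.

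The 9 proteins are basic leucine zipper factors. JUN proteins pair with each other or with a FOS protein, FOS proteins need a JUN partner, and the resulting dimers, called AP-1, bind short palindromes with the core TGA(C/G)TCA or, with ATF partners, TGACGTCA. FOS, FOSB, JUN and JUNB are textbook immediate-early genes, transcribed within minutes of a growth factor or phorbol ester signal through the MAP kinases and serum response factor. JUND is more constant, FOSL1 and FOSL2 are usually induced later and are more stable, and BATF and BATF3 are zipper proteins without a transactivation domain that are best known in lymphoid and dendritic cells.

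Each site was placed in 1 of 4 classes. Promoter sites (14) lay within 1000 bases of a member's annotated start. Sites at a member's own far end (7) lay within 1000 bases of the 3′ end of its annotated gene, a class set up after its values had been seen. Another 32 sites lay within 1000 bases of an end of some other protein-coding gene, and the remaining 149 were distal. Library totals ran from 12258890 counts (6 h, replicate 1) to 35548737 (72 h, replicate 2). Levels are given as CPM, counts relative to the library size after scaling by TMM, edgeR's trimmed mean of M-values. Calls were made below an adjusted p of 0.05 in edgeR's quasi-likelihood test over 177759 sites. As a check of the label, the start sites of the 5 erythroid genes GATA1, TAL1, HBG2, NFE2 and LMO2 measured 2.81 to 58.8 CPM, with a deposited peak in all 6 lists for 4 of them and in 4 lists for GATA1. Of 4 genes of other lineages, 1 had a start site, PTPRC at 0.637 to 2.96 CPM, a range that reaches the lowest GATA1 value, and CD3E, ALB and CDH1 had none. Of those 5 erythroid start sites, 4 were called lower at 6 h and 4 at 72 h, where 42.1% and 78.9% of all start sites were, and the part of this change in the values below was not tested. Of 5 megakaryocyte genes, PF4 and GP1BA had no start site and that of GP9 was too weak to test. The start of ITGA2B was lower at 6 h (-1.47, adjusted p = 4.7e-06) and at 72 h (-0.84, adjusted p = 5.3e-04), and that of ITGB3 at 72 h (-0.58, adjusted p = 0.0144).

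The 250 bases before the start are shown for 5 members that stand for the courses described below: FOS and FOSB, whose start sites were higher at 6 h, JUN and JUND, the most open per length, and BATF, the least open. The sequences are from RefSeq (GRCh38.p14), which held 7 of the 9 members, FOSL1 and BATF3 not among them. Capitals mark TGANNTCA (the spacing of the cyclic-AMP response element) and TGACG, on either strand.
FOS, chr14:75278578-75278827, plus strand: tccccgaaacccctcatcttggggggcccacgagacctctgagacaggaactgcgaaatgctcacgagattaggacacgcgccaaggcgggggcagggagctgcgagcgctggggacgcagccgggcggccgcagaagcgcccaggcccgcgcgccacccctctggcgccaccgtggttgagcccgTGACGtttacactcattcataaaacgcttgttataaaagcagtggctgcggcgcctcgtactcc
FOSB, chr19:45467746-45467995, plus strand: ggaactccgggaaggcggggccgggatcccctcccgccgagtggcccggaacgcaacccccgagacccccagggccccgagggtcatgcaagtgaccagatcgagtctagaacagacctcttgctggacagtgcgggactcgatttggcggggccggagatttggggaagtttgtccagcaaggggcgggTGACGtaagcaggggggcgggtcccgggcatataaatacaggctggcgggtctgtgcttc
JUN, chr1:58784048-58784297, minus strand: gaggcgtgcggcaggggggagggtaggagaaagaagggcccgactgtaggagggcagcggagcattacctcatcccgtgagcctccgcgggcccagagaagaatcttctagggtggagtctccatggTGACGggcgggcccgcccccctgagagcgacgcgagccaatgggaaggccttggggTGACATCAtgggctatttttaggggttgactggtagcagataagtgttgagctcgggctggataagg
JUND, chr19:18281623-18281872, minus strand: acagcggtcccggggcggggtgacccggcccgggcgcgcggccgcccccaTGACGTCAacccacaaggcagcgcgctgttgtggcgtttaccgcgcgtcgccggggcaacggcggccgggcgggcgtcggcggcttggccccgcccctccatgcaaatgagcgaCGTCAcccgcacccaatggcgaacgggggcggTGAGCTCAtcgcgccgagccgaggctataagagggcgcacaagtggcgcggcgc
BATF, chr14:75522219-75522468, plus strand: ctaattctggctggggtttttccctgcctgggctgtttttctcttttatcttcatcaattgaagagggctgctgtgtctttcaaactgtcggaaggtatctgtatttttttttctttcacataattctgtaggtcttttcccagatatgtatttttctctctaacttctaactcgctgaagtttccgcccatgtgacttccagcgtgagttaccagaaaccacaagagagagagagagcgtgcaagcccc
TGANNTCA was found in 2 of the 7 promoters and in 10.1% of all 35116 promoters of the same length. In JUN it read TGACATCA, 67 bases before the start, and in JUND it read TGACGTCA at 200 bases and TGAGCTCA at 54. The shorter TGACG, which is contained in TGACGTCA and was added after the sequences had been seen, occurred in 6 of 7 (JUN, JUNB, JUND, FOS, FOSB and FOSL2) and in 21.2% of all promoters. In FOS it began 64 bases before the start, in FOSB 60 and in FOSL2 66. The canonical AP-1 core TGANTCA was in 0 of 7 windows (6.57% of all promoters), and the CArG box, the serum response factor motif, also in 0 of 7 (1.16%). These matches describe letters in the windows and not binding. Bases farther than 250 before the start were not searched, so the counts do not say whether a motif lies there.

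At the gene starts, FOS and FOSB were more open at 6 h than at 0 h. JUND was less open, where 42.1% of all start sites were called lower. At 72 h, with TMM scaling, every member except BATF had a start site below its 0 h level, falls that kept their sign for JUND and BATF3 in all 5 scalings tried and turned positive for the other 6 in at least 1. The FOS start site (chr14:75278136-75279244) measured 24.0 and 21.3 CPM at 0 h, 32.0 and 31.2 at 6 h, then 11.4 and 12.6 at 72 h. Both 6 h libraries were the highest and both 72 h libraries the lowest, without overlap. The log2 fold change was 0.48 at 6 h (SE 0.16, adjusted p = 0.0238) and -0.91 at 72 h (SE 0.17, adjusted p = 5.5e-05). The 6 h call is weak: it was lost on leaving out any 1 library other than the 0 h replicate 1, with adjusted p from 0.069 (either 72 h library) to 0.120 (0 h replicate 2), 0.118 without 6 h replicate 2 and 0.081 without 6 h replicate 1.

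FOSB, the close paralogue of FOS, had a small site over its start (chr19:45467685-45468283) with 9.62 and 5.50 CPM at 0 h, 14.3 and 14.0 at 6 h, then 5.31 and 4.08 at 72 h. The 6 h libraries again stood above all others, while one 0 h library lay close to the 72 h values. It rose by 0.92 at 6 h (SE 0.25, adjusted p = 0.0054), or 0.55 with adjusted p = 0.098 without 0 h replicate 2. At 72 h it was 0.67 lower on the log2 scale than at 0 h (a change of -0.67, SE 0.25, adjusted p = 0.0225), a call lost without 0 h replicate 1 (adjusted p = 0.458) or 72 h replicate 2 (0.202). The larger FOSB site inside the gene, centred 1.85 kb downstream, measured 52.4 and 43.4, then 46.1 and 63.7, then 30.6 and 31.9 CPM. Its 0 h and 6 h libraries overlapped (0.21, adjusted p = 0.323), and it fell by 0.62 at 72 h (adjusted p = 0.0020).

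The FOS-related genes FOSL1 (FRA1) and FOSL2 (FRA2) had broad, open starts that did not pass the test at 6 h. The FOSL1 start site measured 56.3 and 77.2 CPM at 0 h, 69.9 and 65.1 at 6 h, then 27.7 and 27.8 at 72 h. FOSL2 measured 66.6 and 83.3, then 82.0 and 77.7, then 35.7 and 37.5. In both, the 6 h values lay within the range of the 0 h values and the 72 h values below it. At 6 h FOSL1 changed by 0.01 on the log2 scale (SE 0.15, adjusted p = 0.953) and FOSL2 by 0.09 (SE 0.14, adjusted p = 0.638). At 72 h the changes were -1.27 (SE 0.15, adjusted p = 2.95e-07) and -1.04 (SE 0.14, adjusted p = 1.5e-06).

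Among the JUN genes, JUND changed most. Its start site (chr19:18281073-18282409) measured 131 and 114 CPM at 0 h, 95.5 and 83.8 at 6 h, then 31.1 and 31.9 at 72 h, with no overlap between times. The change was -0.45 at 6 h (SE 0.13, adjusted p = 0.0090) and -1.96 at 72 h (SE 0.14, adjusted p = 3.3e-10). The 6 h call was lost without 0 h replicate 1 (adjusted p = 0.0781) or 6 h replicate 2 (0.0785). JUN (chr1:58783509-58784681) measured 98.5 and 99.3 CPM at 0 h, 83.7 and 78.5 at 6 h, then 33.8 and 42.6 at 72 h. Its libraries did not overlap either, yet the 6 h change of -0.29 (SE 0.14) missed the threshold at adjusted p = 0.101, and it passed when 72 h replicate 1 (0.0481) or 72 h replicate 2 (0.0487) was left out. At 72 h JUN fell by 1.37 (SE 0.14, adjusted p = 2.8e-08).

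JUNB, which can oppose JUN in some settings, had a pair of promoter sites, both of which also lie within the annotated body of the neighbouring gene HOOK2. The site over the JUNB start measured 30.7 and 41.2 CPM at 0 h, 40.2 and 37.5 at 6 h, then 20.2 and 19.4 at 72 h. It overlapped between 0 and 6 h (0.11, adjusted p = 0.628) and fell by 0.86 at 72 h (SE 0.16, adjusted p = 7.9e-05). The stronger site, centred 1.40 kb upstream, measured 59.2 and 77.5, then 47.1 and 49.5, then 32.5 and 33.5 CPM. It was lower at both times, by -0.50 at 6 h (SE 0.15, adjusted p = 0.0099) and -1.05 at 72 h (SE 0.15, adjusted p = 2.6e-06), and the 6 h call was lost without 0 h replicate 2 (0.172) or 6 h replicate 1 (0.0649).

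BATF had the least open start of the 9, and its start was the one not called lower at 72 h. The site measured 2.60 and 2.39 CPM at 0 h, 2.05 and 2.40 at 6 h, then 3.52 and 4.01 at 72 h. The 72 h libraries were the highest, but the change against 0 h, 0.60 (SE 0.29), had adjusted p = 0.072. Against 6 h it was 0.73 (SE 0.29, adjusted p = 0.0448), a call lost on leaving out any library of either time (0.0808 to 0.213). BATF3 was lower at 72 h, as the other 7 members were with TMM scaling. It measured 17.9 and 14.8 CPM, then 10.5 and 12.4, then 6.94 and 7.86 over its start, without overlap. Its 6 h change of -0.50 had adjusted p = 0.052 (0.0354 without 0 h replicate 2), and it fell by 1.14 at 72 h (adjusted p = 3.8e-05). Of 2 weak sites upstream of BATF3, the nearer one was called higher at 6 h (1.36 and 1.53 CPM, then 2.56 and 2.97; 0.94, adjusted p = 0.046). That call was lost on leaving out any 1 of the 6 libraries (0.0538 to 0.250).

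**Figure D1:**
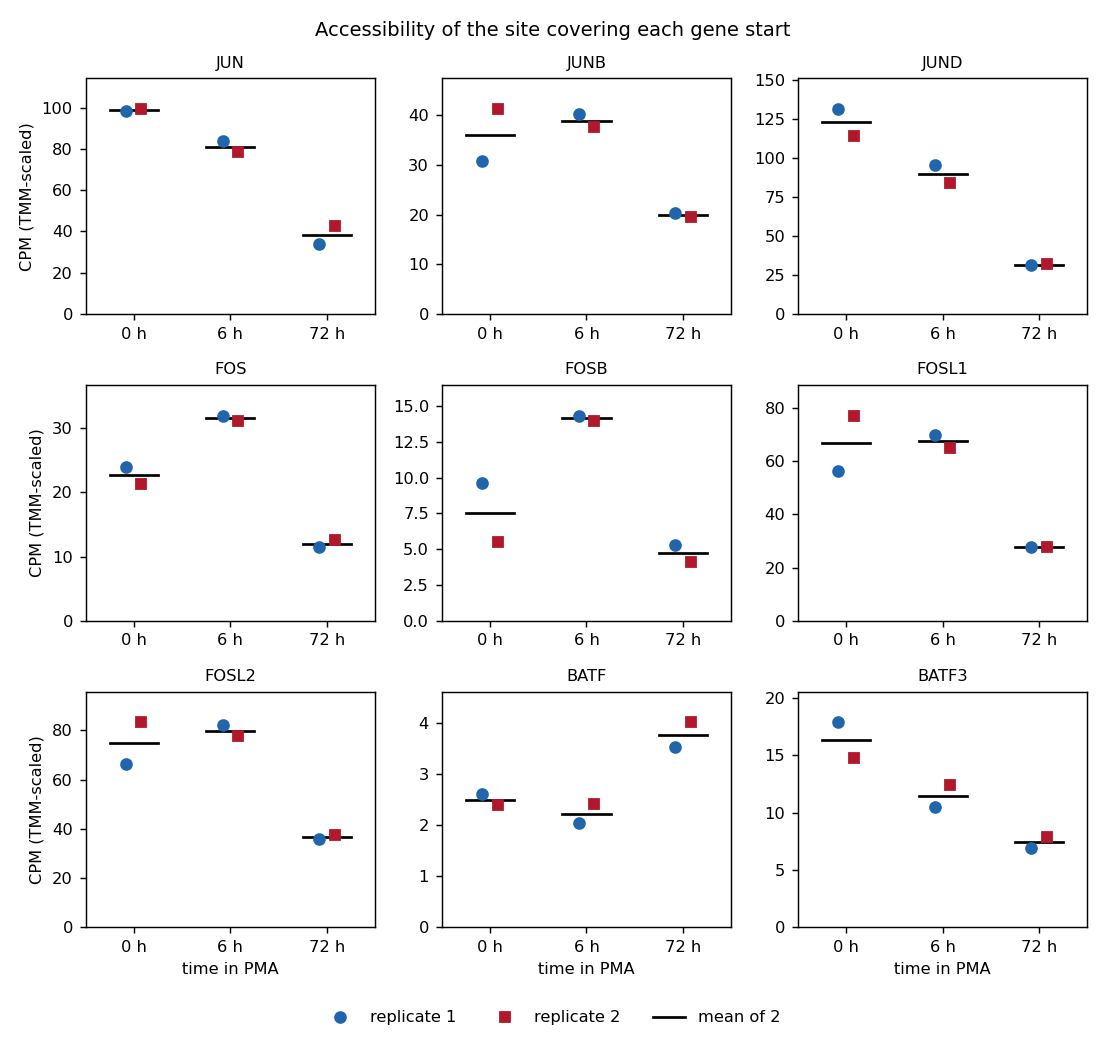
CPM of the site covering each gene's start (y axis, from 0, TMM-scaled) at 0, 6 and 72 h of PMA (x axis), with 1 point per library and a line at the mean of 2. FOS and FOSB peak at 6 h (means 31.6 and 14.1 CPM), JUND steps down to 31.5 CPM at 72 h, and BATF stays below 5 CPM with its highest values at 72 h.

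Compared per length, the most open start sites at 0 h were JUND (91.6 ± 9.0 CPM per kb of site, mean ± SD, n = 2) and JUN (84.3 ± 0.432), whose means differed by less than the SD of JUND. FOSL2 (47.4 ± 7.5), JUNB (41.2 ± 8.44) and FOSL1 (36.5 ± 8.10) followed, with overlapping libraries between neighbours. FOS (20.4 ± 1.77) and BATF3 (19.7 ± 2.65) overlapped as well, FOSB (12.6 ± 4.87) lay below them and BATF (3.14 ± 0.186) was last. At 6 h FOSB (23.6 ± 0.439) stood above BATF3 (13.8 ± 1.61), the reverse of their order at 0 h. JUN (69.1 ± 3.1) and JUND (67.1 ± 6.18) overlapped at 6 h, and by 72 h JUN (32.5 ± 5.31) stood above JUND (23.6 ± 0.457) in both libraries.

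In all, 3 of 14 promoter sites were called higher at 6 h (FOS, FOSB and the weak BATF3 site) and 2 lower (JUND and the upstream JUNB site). Among 12183 sites at the starts of all genes, 6.25% were called higher and 42.1% lower. At 72 h, 0 were higher and 10 lower, against 6.67% and 78.9% of all start sites. The 4 sites that were not called then were those of BATF, the 2 weak sites upstream of BATF3 and a weak site 0.907 kb upstream of JUN. From 6 to 72 h, 10 were lower and 1, BATF, higher, against 72.1% and 3.61%. The share falling at 72 h was thus near that of gene starts in general.

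These directions depend on how libraries are scaled. The median change of all start sites at 72 h was -1.27 with TMM, -0.77 with total counts, -0.37 with loess offsets and -0.30 with TMM factors from the 35751 sites that overlapped a peak in every library. Over all sites the median was 0.29 with TMM and 1.25 with the last of these. Among the 14 promoter sites, the numbers called higher and lower at 72 h were 0 and 10 with TMM and with DESeq2-style size factors (RLE), 2 and 8 with total counts, 3 and 2 with loess and 4 and 2 with the peak-based factors. At 6 h they were 3 and 2, 1 and 4, 3 and 1, 6 and 1, and 6 and 0 in the order TMM, RLE, total counts, loess and peak-based. JUND at 72 h was lower in all 5 scalings (-2.14 to -0.31), and FOSB at 6 h was higher in all 5 (0.75 to 1.23). FOS at 6 h was higher in 4, the exception being RLE (0.33, adjusted p = 0.120). JUND at 6 h was called lower only with TMM and RLE and turned to 0.05 with loess. At 72 h FOS, FOSB, JUN, JUNB, FOSL1 and FOSL2 each turned positive under loess or the peak-based factors, JUN to 0.25 and FOSL2 to 0.53 with loess.

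Measured against other gene starts, which a constant scaling does not alter, FOS at 6 h exceeded the median start site by 0.87 on the log2 scale and stood at percentile 90.6, and FOSB exceeded it by 1.31 and stood at percentile 94.5. From 6 to 72 h both lay at the other extreme, FOS at percentile 3.88 and FOSB at 1.58. They were not alone there: the starts of JUND (2.10) and FOSL1 (7.64), not called higher at 6 h, lay low as well. JUND lay near the median at 6 h (a difference of -0.057, percentile 41.6) and 0.69 below it at 72 h (a difference of -0.69, percentile 3.45). BATF lay 1.86 above it, at percentile 92.2. JUN (40.3), FOSL1 (49.8), BATF3 (59.9), FOSL2 (65.7), FOS (71.4), JUNB (73.0 for the site over the start) and FOSB (78.1) lay nearer the middle of all start sites at 72 h. These percentiles are descriptions without a test. Loess offsets are not a constant scaling and do alter these positions. With them the median start site changed by -0.37 at 72 h, JUND by -0.31 and BATF by 0.16, so that JUND did not lie below the median. At 6 h the median with loess was -0.21, with FOS at 0.64 and FOSB at 0.75.

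The promoter's share of a locus's promoter and distal counts is a ratio within a library and needs no scaling between libraries. It was not worked out for other genes. Over all genes, the median change at 72 h was -1.27 at start sites and 0.51 at distal sites with TMM. With loess offsets these medians were -0.37 and 0.08. A falling share is therefore not shown to be particular to these loci. For JUN the share went from 61.5% ± 0.303 at 0 h (mean ± SD, n = 2) through 51.0% ± 2.77 after 6 h down to 32.1% ± 2.91 after 72 h. JUND went from 44.2% ± 3.48 to 35.7% ± 5.10 and 21.5% ± 0.574, and FOSL2 from 35.2% ± 0.253 to 32.5% ± 2.58 and 19.7% ± 0.130. In these 3 genes distal sites took a growing share of the counts, and both 72 h libraries lay below all others. JUNB kept 41.8% ± 5.79, 43.3% ± 0.435 and 43.0% ± 1.24, and FOSB 14.6% ± 1.83, 16.5% ± 1.38 and 15.5% ± 0.940, differences within the spread of the libraries. FOS was the member with a higher share at 6 h in both libraries, 20.3% ± 2.0 against 14.3% ± 0.478 at 0 h and 13.1% ± 0.849 at 72 h. FOSL1 went from 41.4% ± 1.32 to 42.5% ± 4.84 and 29.0% ± 1.65, and BATF3 from 20.9% ± 2.09 to 16.6% ± 0.230 and 8.72% ± 0.232. In FOSL1 and BATF3, as in JUN, JUND and FOSL2, both 72 h libraries lay below all others. BATF went from 6.38% ± 0.358 to 3.19% ± 0.224 and 5.09% ± 0.318. With 2 libraries against 2, an exact permutation test cannot give a p below 0.333, so none was run.

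**Figure D2:**
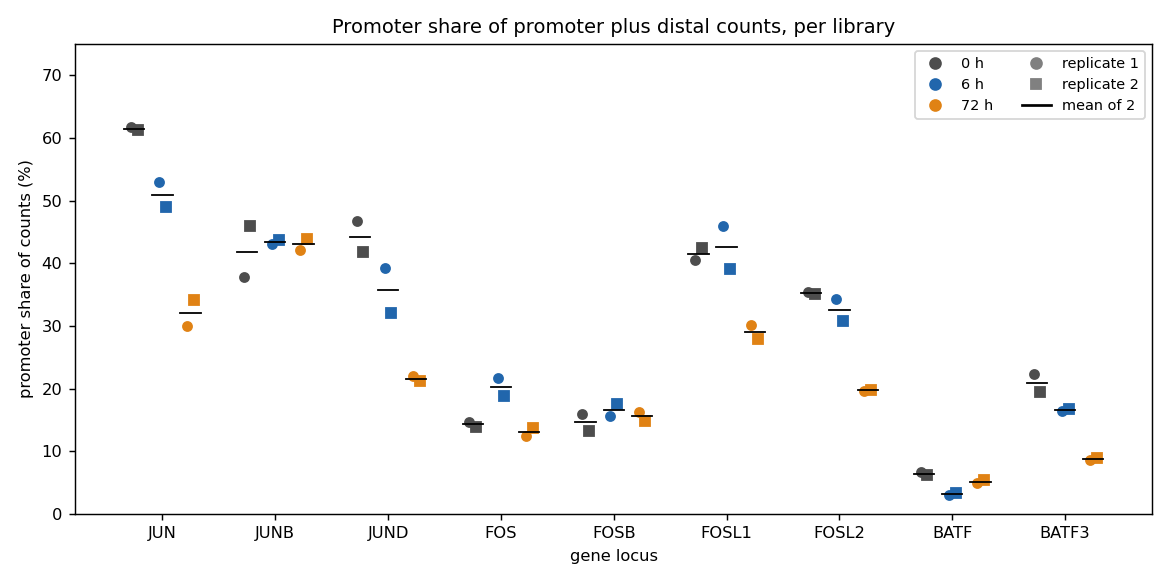
Promoter share of the promoter plus distal counts of each locus in percent (y axis) for the 9 loci (x axis), 1 point per library, coloured by time, with a line at the mean of 2. JUN falls from 61.5% to 32.1%, JUND from 44.2% to 21.5% and FOSL2 from 35.2% to 19.7%. FOSL1 falls from 41.4% to 29.0% and BATF3 from 20.9% to 8.72%, while JUNB and FOSB stay near their 0 h shares.

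Among the promoter sites and far ends, the largest changes at 6 h were at the far ends of FOS, FOSB and JUN. Just beyond the annotated end of FOS, 239 bases downstream (chr14:75282469-75283039), the site measured 0.715 and 0.908 CPM at 0 h, 4.95 and 11.8 at 6 h, then 0.725 and 0.684 at 72 h. The 6 h libraries were far above all others, and 0 and 72 h were alike. The log2 fold change was 3.39 at 6 h (SE 0.40, adjusted p = 6.3e-07), -0.22 at 72 h (SE 0.47, adjusted p = 0.685) and -3.61 from 6 to 72 h (SE 0.37, adjusted p = 3.8e-07). Without 6 h replicate 2 the 6 h value was 2.53 (adjusted p = 2.7e-04) and that from 6 to 72 h -2.75.

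FOSB behaved alike over its own end (chr19:45474314-45475699), with 2.53 and 1.39 CPM at 0 h, 14.6 and 44.0 at 6 h, then 4.76 and 6.73 at 72 h. Here the 72 h libraries stayed above those of 0 h. It rose by 3.97 at 6 h (SE 0.39, adjusted p = 6.2e-08), was still 1.59 higher at 72 h (SE 0.40, adjusted p = 0.0014), and fell by 2.38 from 6 to 72 h (SE 0.33, adjusted p = 8.9e-06). Without 6 h replicate 2 it rose by 2.87 (adjusted p = 2.3e-06) and fell by 1.29.

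JUN had a site 372 bases beyond its end (chr1:58779992-58780419) with 5.20 and 2.29 CPM at 0 h, 9.64 and 12.5 at 6 h, then 3.93 and 5.50 at 72 h. The 6 h libraries again stood apart, and 0 and 72 h overlapped. It rose by 1.61 at 6 h (SE 0.31, adjusted p = 2.2e-04), or by 2.29 without 0 h replicate 1. At 72 h it did not pass (0.37, adjusted p = 0.291), but without 0 h replicate 1 it did (1.04, adjusted p = 0.0083). From 6 to 72 h it fell by 1.25 (adjusted p = 0.0012), a call lost without 72 h replicate 1 (0.0557). JUNB, with a site 37 bases beyond its end, went from 15.3 and 18.0 CPM to 26.4 and 23.1 and then to 10.8 and 11.8. Its 6 h rise was smaller, 0.57 (SE 0.18, adjusted p = 0.0150), lost without 0 h replicate 1 (0.0865) or 6 h replicate 1 (0.0944). The fall of 0.56 at 72 h (adjusted p = 0.0084) was lost without 0 h replicate 2 (0.0721) or 72 h replicate 1 (0.0785).

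The remaining 3 far ends did not share this course. The JUND site, 29 bases from the gene's end and close to its start because the gene is short, measured 8.45 and 7.46 CPM, then 5.37 and 4.52, then 3.16 and 2.15, and fell by 1.58 at 72 h (adjusted p = 1.6e-05). Its 6 h call (-0.70, adjusted p = 0.0369) was lost without 0 h replicate 1 (0.115) or 6 h replicate 2 (0.170). The FOSL1 site also covers an end of the neighbouring gene CCDC85B, and measured 67.9 and 101 CPM at 0 h, 89.9 and 91.8 at 6 h, then 27.1 and 30.4 at 72 h. Its 6 h change of 0.10 had adjusted p = 0.626 (0.046, with 0.42, without 0 h replicate 2), and it fell by 1.55 at 72 h (adjusted p = 3.4e-08). The BATF3 site went from 1.17 and 0.908 CPM to 2.05 and 1.68 and then 3.18 and 4.29. Its 6 h change of 0.82 had adjusted p = 0.094 and its rise of 1.86 at 72 h had adjusted p = 8.0e-05. FOSL2 and BATF had no site within 1000 bases of their end.

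In all, 4 of 7 far ends were called higher at 6 h (FOS, FOSB, JUN and JUNB) and 1 lower, while 20.2% of 3660 such sites over all genes were higher and 21.4% lower. At 72 h, 2 were higher and 3 lower (27.5% and 42.2% of all), and from 6 to 72 h 1 and 6 (14.4% and 31.3%). Because the class was set up after these values were seen, the counts are a description. FOSB stood at percentile 99.4 of all far ends at 6 h, FOS at 98.8, JUN at 89.3 and JUNB at 70.8. All 5 scalings called FOS (3.08 to 3.71), FOSB (3.74 to 4.29) and JUN (1.35 to 1.93) higher at 6 h, and 4 of 5 did so for JUNB (0.41 to 0.89). Set against the start site of the same gene, the FOS far end held 2.97% and 4.27% of the start's counts at 0 h, 15.5% and 37.9% at 6 h, then 6.33% and 5.42% at 72 h. For FOSB these ratios were 26.4% and 25.2%, then 102% and 315%, then 89.8% and 165%. For JUN they were 5.28% and 2.31%, then 11.5% and 16.0%, then 11.7% and 12.9%. In FOS and FOSB, 6 h replicate 2, the deeper of the 6 h libraries, had the higher ratio and was the library in whose deposited peak list the far end was called. No deposited peak list held the JUN far end.

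**Figure D3:**
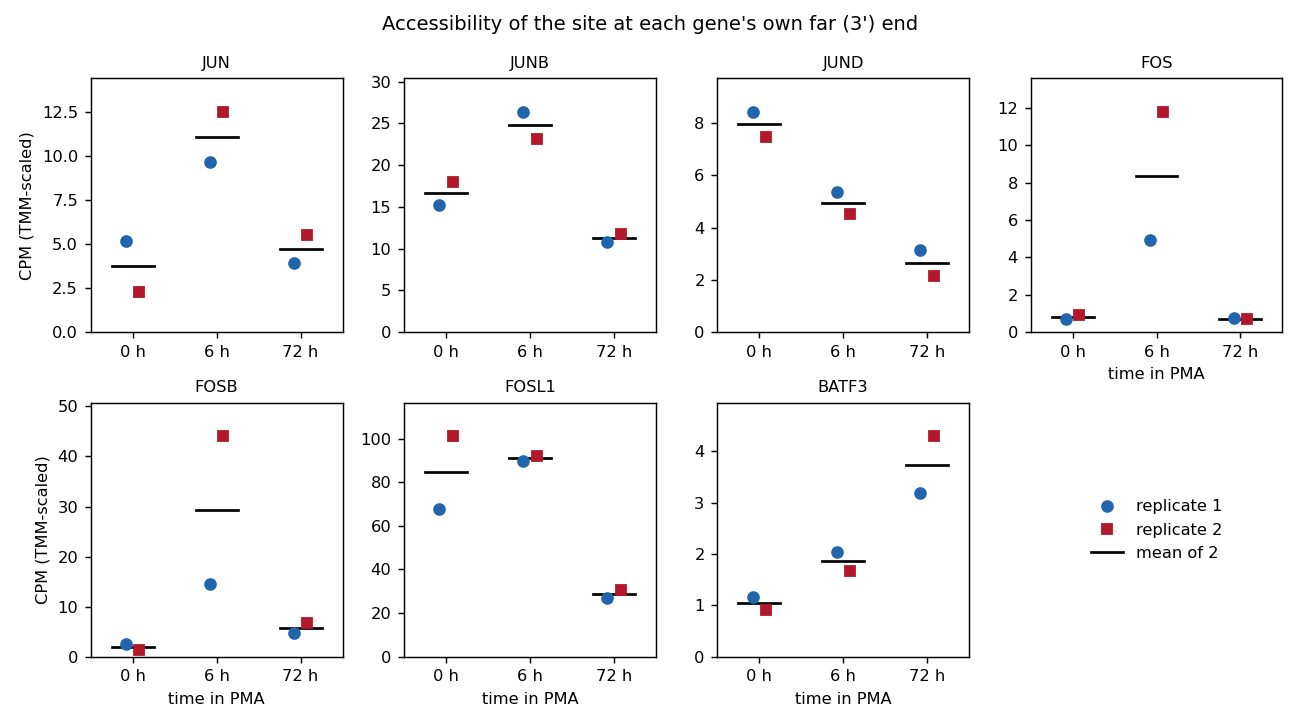
CPM of the site within 1000 bases of each gene's own 3′ end (y axis, from 0, TMM-scaled) at 0, 6 and 72 h (x axis), 1 point per library with a line at the mean of 2, for the 7 members that have such a site. FOS, FOSB, JUN and JUNB are highest at 6 h in both libraries, with the FOS and FOSB libraries far apart (4.95 and 11.8, 14.6 and 44.0 CPM), whereas JUND and BATF3 move one way from 0 to 72 h.

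With TMM scaling, every locus had distal sites called higher and distal sites called lower at 72 h, in a balance that differed among the genes. With the peak-based factors, JUN, FOSL2 and BATF3 had 0 called lower at that time, as BATF3 did with total counts. Of the 149, 42 were called higher and 25 lower at 6 h, against 25% and 14.4% of all 157794 distal sites. At 72 h, 54 were higher and 46 lower, against 41.4% and 24.4%, and from 6 to 72 h 26 were higher and 39 lower, against 24% and 16.1%. The split of calls moved with the scaling: at 72 h, 54.0% of the called distal sites were higher with TMM, 47.1% with RLE, 56.1% with loess, 74.0% with total counts and 89.3% with the peak-based factors. The corresponding shares at 6 h were 62.7%, 49.2%, 55.2%, 70.8% and 84.8%. Over all sites of every class, the shares in the same order were 56.7%, 51.6%, 47.9%, 71.1% and 83.9% at 72 h. At 6 h they were 58.2%, 48.9%, 48.7%, 67.3% and 78.6%, so the whole table moved with the scaling. Sites called higher at 6 h were weak at the outset, with a median of 1.59 CPM at 0 h, and those called lower were strong, with 10.2 CPM. The same held over all distal sites (0.907 and 5.13 CPM). Leaving out 6 h replicate 2 lowered the number higher at 6 h to 25, the lowest of the 6 such fits.

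By locus, JUN, FOSL2, BATF and BATF3 had more distal sites called higher than lower at 72 h, and JUNB, JUND, FOS, FOSB and FOSL1 more called lower than higher, beside the 41.4% and 24.4% over all distal sites. At 72 h, 13 of 19 at JUN were higher and 2 lower, 12 and 3 of 25 at FOSL2, 10 and 1 of 20 at BATF, and 8 and 2 of 14 at BATF3. JUNB had 1 higher and 9 lower of 12, FOS 3 and 8 of 17, FOSB 2 and 9 of 12, and FOSL1 2 and 7 of 15, while JUND had 3 and 5 of 15. At 6 h the counts were 5 and 0 at JUN, 8 and 2 at FOSL2, 9 and 1 at BATF, 3 and 1 at BATF3, 6 and 5 at JUND, 2 and 5 at JUNB, 3 and 3 at FOS, 4 and 4 at FOSB, and 2 and 4 at FOSL1. At 72 h JUN, FOSL2, BATF and BATF3 had more sites called higher than lower in all 5 scalings. The others did not keep their balance: with the peak-based factors FOS had 7 higher and 1 lower, FOSB 5 and 1, FOSL1 5 and 2, JUND 8 and 3 and JUNB 3 and 3. The windows also differ in what else they hold. No other protein-coding gene lies in those of JUN, FOS and FOSL2, 1 lies in that of BATF3 and 2 in that of BATF, whereas 4 lie near JUND and FOSB, 8 near JUNB and 10 near FOSL1, so that a distal site there cannot be assigned to the AP-1 gene from its position.

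**Figure D4:**
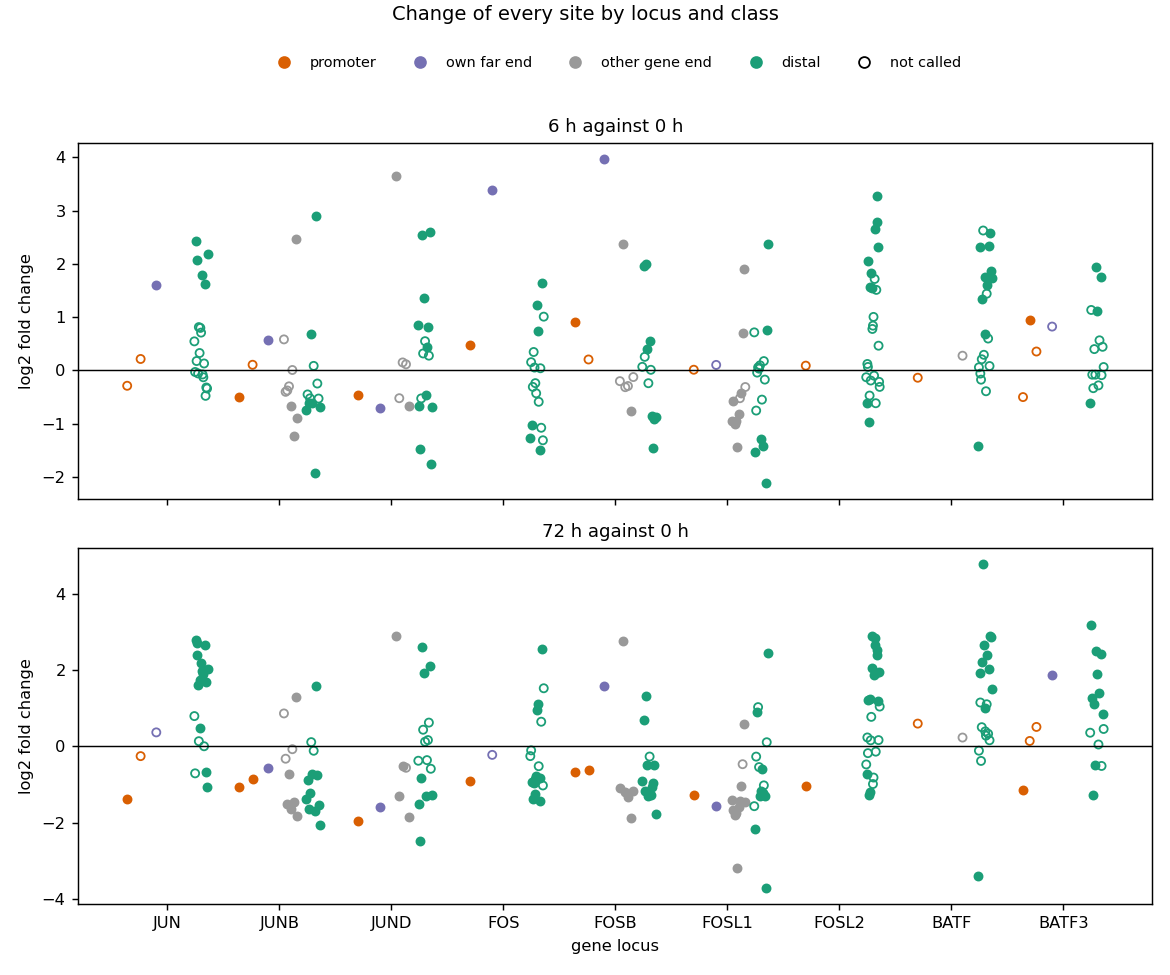
Log2 fold change of all 202 sites (y axis) at 6 h (top) and 72 h (bottom) against 0 h, by locus (x axis) and class (colour), filled where called and open where not. The far ends of FOS and FOSB reach 3.39 and 3.97 at 6 h, and the distal sites of JUN, FOSL2, BATF and BATF3 lie mostly above 0 at 72 h while those of JUNB, FOS, FOSB and FOSL1 lie mostly below, with TMM scaling; with the peak-based factors FOS, FOSB and FOSL1 have more sites called higher than lower.

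At FOSL2, the strongest early gain lay 53.2 kb downstream of the start, beyond the gene (chr2:28445784-28446351). The site measured 1.49 and 1.29 CPM at 0 h, 13.4 and 13.6 at 6 h, then 8.36 and 7.58 at 72 h, so that each time stood apart. It rose by 3.28 at 6 h (SE 0.26, adjusted p = 3.5e-09) and remained 2.52 higher at 72 h (SE 0.26, adjusted p = 3.8e-08). It was flanked by 2 sites, at 52.3 and 57.1 kb, that rose by 2.78 and 2.32 at 6 h. These neighbours were picked after their values had been seen, and the 3 sites together went from 5.39 and 6.50 CPM to 39.7 and 36.7 and then 20.7 and 21.6. A site inside FOSL2, 14.1 kb from its start (chr2:28406569-28407338), opened later. It measured 1.62 and 2.34 CPM, then 4.43 and 7.06, then 13.5 and 16.6, a rise of 1.56 at 6 h (adjusted p = 1.8e-04), 2.90 at 72 h (adjusted p = 1.3e-08) and 1.34 from 6 to 72 h (adjusted p = 1.5e-04). The most open distal site at 0 h, 26.1 kb upstream, went the other way, from 34.8 and 39.5 CPM to 14.8 and 22.7 and then 15.0 and 15.5 (-0.97 at 6 h, adjusted p = 2.5e-04, and -1.28 at 72 h, adjusted p = 2.8e-06).

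At JUN, the distal site with the largest 6 h change among those with a mean of at least 2 CPM lay 39.7 kb upstream (chr1:58823268-58824130), with 4.35 and 4.73 CPM at 0 h, 17.1 and 24.0 at 6 h, then 16.6 and 20.6 at 72 h. It was higher at both later times, by 2.19 (SE 0.22, adjusted p = 7.7e-08) and 2.03 (SE 0.22, adjusted p = 5.55e-08). A weaker site 19.1 kb upstream measured 1.04 and 0.62 CPM, then 2.05 and 2.82, then 4.89 and 5.43, and rose by 2.67 at 72 h (adjusted p = 8.8e-07). Its 6 h rise of 1.63 (adjusted p = 0.0015) was lost without 6 h replicate 2 (0.0528). The most open distal site at 0 h, 32.4 kb upstream, held 18.2 and 22.7, then 16.6 and 15.8, then 10.7 and 8.73 CPM and fell by 1.07 at 72 h (adjusted p = 3.7e-05).

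With the same limit of 2 CPM, the BATF locus opened most at a site 39.8 kb downstream (chr14:75561959-75562615), from 1.49 and 0.96 CPM at 0 h to 5.37 and 8.64 at 6 h, then 9.29 and 8.71 at 72 h, a rise of 2.58 (SE 0.32, adjusted p = 1.2e-06) and 2.90 (SE 0.31, adjusted p = 5.2e-08). At BATF3 the site with the largest changes above that limit lay 32.2 kb downstream (chr1:212667282-212667979), beyond the gene's far end. It measured 1.95 and 3.20 CPM, then 8.19 and 11.6, then 14.6 and 14.9, and rose by 1.93 (SE 0.26, adjusted p = 4.6e-06) and 2.49 (SE 0.26, adjusted p = 3.6e-08). In both loci the site over the start was not called at 6 h. The most open distal site of BATF at 0 h, inside the gene, held 6.11 and 5.98, then 10.2 and 9.30, then 7.27 and 8.59 CPM. Its 6 h change of 0.68 (adjusted p = 0.0197) was lost without any 1 library other than 0 h replicate 1 (0.0589 to 0.0673). That of BATF3, 63.4 kb downstream, held 22.6 and 25.1, then 11.8 and 18.8, then 30.9 and 30.4 CPM and rose by 0.97 from 6 to 72 h (adjusted p = 2.6e-04). Its lower 6 h value (-0.62, adjusted p = 0.0128) was lost without 0 h replicate 2 (0.0640) or 6 h replicate 1 (0.188).

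At FOS, the distal site with the largest 6 h change among those with a mean of at least 2 CPM lay 48.8 kb upstream (chr14:75229596-75230554). It measured 6.50 and 7.03 CPM at 0 h, 2.30 and 3.13 at 6 h, then 5.98 and 5.38 at 72 h. It fell by 1.27 at 6 h (SE 0.26, adjusted p = 5.8e-04), did not differ detectably at 72 h (-0.25, adjusted p = 0.354), and rose by 1.02 from 6 to 72 h (adjusted p = 0.0031). Of the weaker sites, one 44.9 kb downstream changed more, from 0.325 and 0.669 CPM to 1.45 and 1.74 (1.65 at 6 h, adjusted p = 0.0055), as did one 28.4 kb downstream, from 1.82 and 1.39 to 0.426 and 0.633 (-1.496, adjusted p = 0.0165). These were named after their values had been seen. The most open distal site, 19.6 kb upstream, held 41.9 and 33.2, then 30.6 and 30.0, then 15.1 and 14.0 CPM. It fell by 1.37 at 72 h (adjusted p = 2.3e-07). At 6 h its change of -0.31 had adjusted p = 0.131 (0.0435 without 0 h replicate 2).

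At FOSB, a site 26.9 kb upstream, inside the DNA repair gene ERCC1, held 4.94 and 7.03 CPM at 0 h, 19.5 and 28.5 at 6 h, then 14.3 and 16.1 at 72 h. It rose by 2.0 (SE 0.22, adjusted p = 3.1e-07) and 1.33 (SE 0.22, adjusted p = 1.75e-05). A site 55.8 kb downstream, inside VASP, held 13.3 and 17.6, then 6.74 and 9.81, then 4.66 and 4.41 CPM and fell by 1.77 at 72 h (adjusted p = 7.4e-07). Its 6 h fall of 0.88 (adjusted p = 0.0039) was lost without 0 h replicate 2 (0.0561). The most open distal site, 43.9 kb upstream and also inside ERCC1, held 76.7 and 72.0 CPM at 0 h, 77.0 and 78.7 at 6 h, then 36.0 and 43.4 at 72 h. It did not pass at 6 h (0.07, adjusted p = 0.724) and fell by 0.90 at 72 h (adjusted p = 6.6e-06), which turned to 0.66 with loess offsets.

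The gene-dense loci of JUNB, JUND and FOSL1 held gains and losses side by side. At JUNB a site 30.5 kb downstream rose from 0.32 and 1.00 CPM to 6.48 and 4.24 at 6 h, then 2.07 and 2.15 at 72 h (2.89, SE 0.41, adjusted p = 7.6e-06, and 1.58, SE 0.42, adjusted p = 0.0021). Without 0 h replicate 2 these were 3.98 and 2.68. The most open one, 49.3 kb downstream inside MAST1, held 43.4 and 32.8, then 24.8 and 22.3, then 9.89 and 8.5 CPM. It fell by 2.05 at 72 h (SE 0.18, adjusted p = 3.9e-09), and its 6 h fall of 0.69 (adjusted p = 0.0029) was lost without 0 h replicate 1 (0.0519).

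At JUND, sites 34.5 kb upstream inside LSM4 and 21.5 kb downstream inside IQCN rose. The first held 1.30 and 2.01, then 9.12 and 11.1, then 6.19 and 8.28 CPM, and rose by 2.59 and 2.10 (adjusted p = 3.0e-07 and 1.4e-06). The second held 2.08 and 2.01, then 11.4 and 12.3, then 10.6 and 14.3 CPM, and rose by 2.54 and 2.60 (adjusted p = 7.6e-08 and 1.4e-08). Near it, 830 bases from the end of IQCN, the site with the largest 6 h rise among those at other genes' ends went from 1.17 and 1.72 CPM to 16.7 and 20.3 and then 10.1 and 11.8 (3.65, SE 0.26, adjusted p = 7.3e-10). It was picked after its values had been seen. The most open distal site, 10.5 kb upstream, held 41.5 and 41.7, then 29.8 and 30.9, then 18.2 and 15.6 CPM and fell by 1.30 at 72 h (adjusted p = 2.2e-07). Its 6 h call (-0.46, adjusted p = 0.0211) was lost without 0 h replicate 2 (0.0549) or either 6 h library (0.0924 and 0.0514).

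At FOSL1 a site 48.6 kb upstream, inside TSGA10IP, rose from 0.84 and 1.77 CPM to 5.88 and 7.94 and then 7.66 and 7.22 (2.38 at 6 h, SE 0.32, adjusted p = 3.4e-06, and 2.46 at 72 h, SE 0.31, adjusted p = 5.1e-07; 3.06 and 3.13 without 0 h replicate 2). A site 33.7 kb upstream was lost: it held 4.22 and 4.92 CPM at 0 h, 1.36 and 0.89 at 6 h, then 0.52 and 0.19 at 72 h. It fell by 2.11 at 6 h (SE 0.40, adjusted p = 2.6e-04) and by 3.70 at 72 h (SE 0.42, adjusted p = 1.4e-07), or 4.57 without 72 h replicate 1 (a change of -4.57). The most open one, 40.9 kb upstream, held 22.7 and 15.5, then 29.5 and 35, then 18.8 and 22.3 CPM. Its 6 h rise of 0.77 (adjusted p = 0.0023) was lost without 6 h replicate 2 (0.0670), and at 72 h it did not pass (0.11, adjusted p = 0.613).

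**Figure D5:**
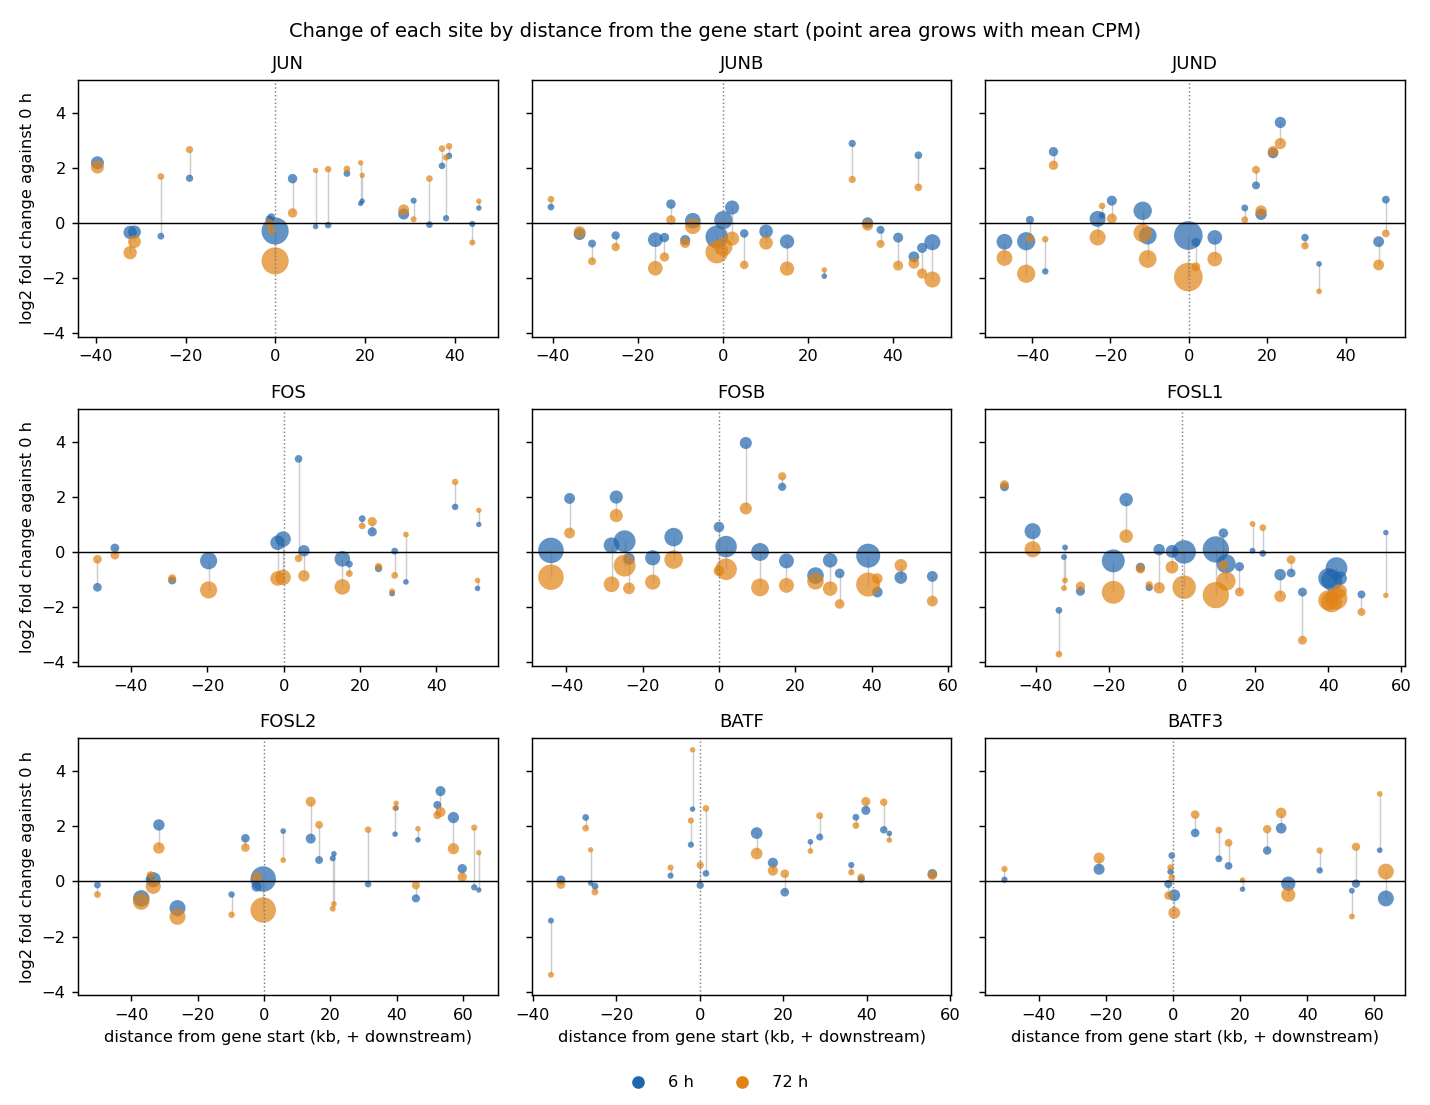
Log2 fold change against 0 h (y axis) of each site at 6 h and 72 h by its distance from the gene's start in kb (x axis, positive downstream), 1 panel per gene, with a grey line joining the 2 values of a site and point area growing with mean CPM. With TMM scaling the large start sites of JUN, JUND and FOSL2 lie below 0 at 72 h (JUN and FOSL2 above 0 with loess offsets), and distal gains stand 39.7 kb upstream of JUN, 53.2 kb downstream of FOSL2 and 39.8 kb downstream of BATF.

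Summed over its distal sites, each locus gives 1 value per library, tested beside 19088 genes whose neighbours share sites. BATF rose by 0.88 at 6 h, from 36.6 and 36.6 CPM to 65.5 and 69.5 (SE 0.11, adjusted p = 1.3e-06), and was 0.94 higher at 72 h (adjusted p = 1.1e-07). JUN rose by 0.36 at 6 h, from 63.3 and 64.8 to 77.2 and 86.5 CPM (adjusted p = 0.0081), and by 0.43 at 72 h (adjusted p = 8.9e-04), and BATF3 gained 0.64 at 72 h (adjusted p = 1.3e-05). JUNB fell by 0.34 at 6 h, from 148 and 140 to 116 and 112 CPM (adjusted p = 0.0087), and by 1.04 at 72 h (adjusted p = 1.0e-08). At 72 h FOS (-0.77), FOSB (-0.73), FOSL1 (-0.47) and JUND (-0.43) were lower as well, and FOSL2 (0.11, adjusted p = 0.418) was not called. Thus 3 of 9 loci were called at 6 h, against 52.4% of all genes, and 8 at 72 h, against 73.8%. From 6 to 72 h the count was 6 against 61.9%. The median over all genes was -0.0042 at 6 h and -0.13 at 72 h with TMM. With the peak-based factors the 72 h sums of FOS (0.19), FOSB (0.23), FOSL1 (0.50) and JUND (0.53) turned positive.

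For each member's strongest promoter site, the 2 genes with the most similar course were found among 11534 genes by the Euclidean distance of log2 CPM centred over the 6 libraries. For FOS these were REM2 (distance 0.196) and MICALL1 (0.225), for JUN TXNL4B (0.0518) and SCFD1 (0.0748), and for JUND HEMGN (0.110) and PPP1R10 (0.148). For the upstream JUNB site they were ARSB (0.0904) and PACS1 (0.0943), and for the FOSB site inside the gene FUBP3 (0.0843) and BIRC3 (0.196). FOSL1 was nearest to TM9SF3 (0.0587) and ATG10 (0.114), FOSL2 to UBE2J1 (0.108) and RAB3GAP1 (0.126), BATF to KLHL35 (0.137) and ARHGAP22 (0.264), and BATF3 to PRDM7 (0.0905) and SGPL1 (0.122). Like FOS, the MICALL1 start measured more at 6 h (41.5 and 47.7 CPM) than at 0 h (35.6 and 33.1) and less at 72 h (15.7 and 17.5). The distances are descriptive, and FOS and BATF had the least close neighbours.

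Other genes of the pathway were read at their strongest start site. Of 9 dimer partners, 1 was called higher and 5 lower at 6 h, against 6.25% and 42.1% of all start sites. At 72 h the counts were 0 and 7, against 6.67% and 78.9%. Their median changes of -0.37 and -1.49 were near the medians of all start sites. The one that rose, ATF3, a stress-induced partner of JUN, went from 1.16 ± 0.0159 CPM (mean ± SD, n = 2) to 3.87 ± 0.194 and then 1.67 ± 0.380 (1.73 at 6 h, adjusted p = 4.9e-04). BATF2 went from 4.65 ± 0.789 to 1.99 ± 0.765 and back to 4.70 ± 0.168 (-1.14 at 6 h, adjusted p = 0.0047). Of 11 kinases and factors upstream of the FOS and JUN promoters, 0 were higher and 7 lower at 6 h (6.25% and 42.1% of all start sites), then 0 and 10 at 72 h (6.67% and 78.9%). MAPK8, the JUN kinase, changed by -0.88 at 6 h (from 85.6 ± 2.52 to 46.6 ± 0.590 CPM, adjusted p = 2.6e-05), and SRF, the serum response factor, by -0.64 (from 130 ± 1.17 to 83.4 ± 0.456 CPM, adjusted p = 2.9e-04).

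The third list held 11 genes known as AP-1 targets. Of these, MMP1 and MMP3 had no start site. Of the other 9, 4 were higher and 2 lower at 6 h (median 0.40), against 6.25% and 42.1% of all start sites. At 72 h the counts were 3 and 4, against 6.67% and 78.9%. MMP9, a matrix metalloproteinase, went from 0.530 ± 0.198 to 3.32 ± 1.80 and 3.81 ± 0.117 CPM (2.68 at 6 h, adjusted p = 3.9e-05). CD44, a hyaluronan receptor, went from 3.36 ± 0.217 to 20.7 ± 0.341 and 15.6 ± 0.0636 CPM (2.62, adjusted p = 3.3e-09). CXCL8, interleukin-8, was called higher at 6 h and not at 72 h, with 5.35 ± 1.22, 14.2 ± 3.22 and 4.31 ± 0.0850 CPM (1.41, adjusted p = 7.2e-05; at 72 h -0.32, adjusted p = 0.245). Around the targets, 55 of 152 distal sites were higher and 16 lower at 6 h, around the partners 37 and 20 of 145, and around the upstream genes 60 and 34 of 201, where 25% and 14.4% of all distal sites were. The lists are described by these counts without a test of the lists themselves.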

How the data were processed

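The deposited table gave whole-number read counts per site and library, which the authors made from reads of 6 ATAC-seq libraries and which sum to a different total in each. The submitters' processing notes name Trim Galore 0.4.3, BWA 0.7.17, SAMtools 1.9, deepTools 3.0.1, MACS2, bedtools 2.26 and DESeq and the build hg38. The settings, the duplicate filter and whether reads were shifted for the Tn5 insertion are not given in the sources used here. The table also holds the authors' log2 fold changes, p-values and class names. The deposited class names did not match the direction of those log2 values, so the classes and p-values were not used. The authors' deposited peak lists, 1 per library, hold a score, a fold enrichment (ratio) and −log10 p and q values, of which only positions were used, to record which lists held a site. Counts were tested with edgeR 4.0.16 (R 4.3.3): a filter with a minimum count of 10 left 177759 sites and removed 3376, libraries were scaled by TMM, and a quasi-likelihood model with 3 time groups was fitted to all 6 libraries, with Benjamini-Hochberg adjustment over all sites tested. The estimated coefficient of variation between replicates was 0.166. The fit was tested on simulated counts. Alternatives were RLE, total-count and loess scaling, TMM factors from 35751 sites with a peak in every list, DESeq2 1.42.0, no filter, 2 groups at a time, a replicate block, a stricter threshold, other windows and each library left out.

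Genes came from RefSeq (GRCh38.p14). Starts and strands were taken from its promoter table, or, for FOSL1, BATF3 and 16 genes of the other lists, from the gene interval with the strand added from general knowledge. Table starts were taken as 0-based and are printed 1-based. The members and lists were chosen with earlier results of these data known, and 3 genes of the lists are not reported here and left out of all list counts. Named were every promoter site, for each gene and time the called distal site with the largest change among those with a mean of at least 2 CPM and no overlap between libraries, the most open distal site at 0 h, and the 2 genes nearest in course. List genes given with values are those with the largest change at 6 h among the called. Sites named outside this rule are said to be so. Whether replicate numbers pair the libraries was checked from the correlation of their deviations from the group means (0.082, 0.053 and 0.085), which is below 0.1, so the numbers were taken as names only. A low correlation cannot exclude a pairing, because counting noise at weak sites also lowers it. The names of the count columns share an ending for each replicate number at every time. The labels name no molecular identifiers, so precision is judged from the 2 libraries of a group.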

Additional observations from a re-analysis of the deposited data

Results flagged for a closer look

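Of the sites described, 4 were called higher at 6 h and lower at 72 h against the same 0 h libraries with TMM scaling. The sites were picked for these opposite calls, so the change from 6 to 72 h follows from the choice and is given as a description without a test. It was -1.39 on the log2 scale (SE 0.17) at the FOS start, -1.59 (SE 0.25) at the FOSB start, and -1.13 (SE 0.18) at the far end of JUNB. A distal site 24.7 kb upstream of FOSB, inside ERCC1, was the fourth: it held 46.3 and 45.7 CPM at 0 h, 55.8 and 65.2 at 6 h, then 32.5 and 33.3 at 72 h, a change of -0.88 from 6 to 72 h (SE 0.14). In each case both 6 h libraries were the highest and both 72 h libraries the lowest. The opposite calls depend on the scaling. They held in 2 of 5 scalings at the FOS start and at the FOSB start, and in 1 of 5, TMM itself, at the JUNB far end and the distal FOSB site. With peak-based factors the 72 h change was positive at all 4, at 0.048, 0.28, 0.40 and 0.48 in the order given. With loess offsets the distal FOSB site was 0.90 higher at 72 h, and its change from 6 to 72 h was 0.12. Leaving out each library in turn, both calls held in 1 of 6 fits at the FOS start, 3 at the FOSB start, 2 at the JUNB far end and 1 at the distal FOSB site. There, the 6 h call was kept without 6 h replicate 1 (adjusted p = 0.0301) and lost without any other library (0.0622 to 0.382).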

How the results depend on the processing

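Rises at 6 h of the FOS, FOSB and JUN far ends kept their direction and call in every alternative run. So did those of the distal sites at 39.7 kb of JUN, 14.1 and 53.2 kb of FOSL2, 39.8 kb of BATF and 32.2 kb of BATF3. Stable rises were not confined to those loci. The 6 h rises at 30.5 kb of JUNB, 34.5 and 21.5 kb of JUND, 26.9 kb of FOSB and 48.6 kb of FOSL1 were called in all 5 scalings. They also kept their direction with each library left out. The 6 h calls of the JUN site at 19.1 kb and of the BATF distal site most open at 0 h were not kept in every run. Depth differs most within the 6 h group, and libraries with 12258890 counts limit what can be seen at weak sites.

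Counts of calls at the AP-1 loci moved as follows. For the counts here and in the next paragraph, the shares called over all sites under the same setting are not given. The counts therefore show how calls moved with the setting and not how these loci compare with other sites. With total counts, distal sites lower at 72 h numbered 25, and from 6 to 72 h 43 were higher and 25 lower. With loess, 25 distal sites were lower from 6 to 72 h and 5 promoter sites were called both at 72 h and from 6 to 72 h. With peak-based TMM factors, distal sites lower numbered 10 at 6 h, 11 at 72 h and 10 from 6 to 72 h, and those higher 92 at 72 h and 59 from 6 to 72 h; promoter sites called were 6 at 72 h and 7 from 6 to 72 h, and 7 distal sums were called at 6 h. DESeq2 called 15 distal sites higher from 6 to 72 h. With 2 groups at a time, 3 promoter sites were called at 6 h. Requiring adjusted p under 0.01 and a log2 change above 1, distal sites lower were 8, 26 and 17 in the 3 comparisons, 14 were higher from 6 to 72 h, and promoter sites called were 0, 6 and 6. A promoter window of 2000 bases gave 8 promoter sites called at 6 h and 16 at 72 h. A reach of 20 kb gave 24 distal sites higher and 5 lower at 6 h, 29 and 15 at 72 h and 15 and 16 from 6 to 72 h, and 100 kb gave 75 and 44, 109 and 79, and 60 and 62.

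Leaving out each library in turn, with the lone library assumed to vary like the other groups, gave 25 to 40 distal sites higher and 18 to 23 lower at 6 h, 45 to 54 and 33 to 48 at 72 h, 13 to 28 and 24 to 42 from 6 to 72 h, promoter calls of 2 to 4, 9 to 10 and 8 to 12, and 3 to 5 far ends higher at 6 h. The replicate block, for numbers not known to pair the libraries, gave 41 distal sites higher and 26 lower at 6 h, 56 and 48 at 72 h and 29 and 41 from 6 to 72 h, with 7, 10 and 11 promoter sites called and 4 far ends higher at 6 h, and lost no call, while 4 of 132 results of named sites gained one.

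The following called log2 changes turned positive. With loess offsets at 72 h: JUN start 0.25, JUNB upstream site 0.37, JUNB start 0.27, JUNB far end 0.16, FOSB inner site 0.74, FOSB site at 43.9 kb 0.66, FOSL1 start 0.18, FOSL1 far end 0.011 and FOSL2 start 0.53. With loess from 6 to 72 h: JUN start 0.040, JUNB upstream site 0.47, FOSB inner site 0.16, FOSB site at 43.9 kb 0.12 and FOSL1 site at 40.9 kb 0.10; at 6 h JUND start 0.053. With peak-based factors at 72 h: JUNB start 0.10, JUNB far end 0.40, FOS start 0.048, FOSB start 0.28, FOSB inner site 0.34 and FOSB site at 43.9 kb 0.055, and, not called to begin with, the weak JUN site 0.71 and the FOS site at 48.8 kb 0.71. With peak-based factors from 6 to 72 h: JUNB upstream site 0.093, BATF3 start 0.0027 and, not called to begin with, the JUN site at 39.7 kb 0.48. Distal sums with those factors: FOS 0.19, FOSB 0.23, FOSL1 0.50 and JUND 0.53 at 72 h, FOSL1 0.20 and JUND 0.14 from 6 to 72 h and, not called to begin with, FOSL1 0.30 at 6 h and FOSL2 0.48 from 6 to 72 h. With total counts at 72 h the FOSL1 sum was 0.033 and the JUND sum 0.073. Loess and the other factors alter the scaling between libraries by construction.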
